A study of Mus musculus with 123 samples.

Results

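Intermediate filaments are rope-like polymers that give cells mechanical strength. In neurons the neurofilament subunits NEFH, NEFM and NEFL, joined by α-internexin (INA) and peripherin (PRPH), fill the axon and set its caliber, and large myelinated sensory neurons carry far more of the heavy chain than small unmyelinated ones. Peripherin is known for its high level in small sensory neurons and its association with axon growth, and vimentin (VIM) is the filament of mesenchymal cells, Schwann cells and satellite glia that is also made by neurons early in development. The 6 genes Nefh, Nefm, Nefl, Ina, Prph and Vim were taken by symbol from the 24134 genes of the tables, and all 6 passed the limit on low values in pooled neurons.

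The genes were followed in dorsal root ganglion (DRG) neurons of 2-month-old mice whose right sciatic nerve had been cut, an operation called sciatic nerve transection (SNT), with the DRG of the uninjured side of the same mice as control. Day 3 cells and pools came from F1 offspring of CAST/Eij males and C57BL/6 females, and after removal of 11 outlier cells by the authors they comprised 41 SNT-side and 18 control-side neurons, plus 3 libraries of pooled neurons per side. Day 7 cells came from C57BL/6 mice of both sexes and comprised 33 SNT-side neurons (16 from females, 17 from males) and 14 control-side neurons (7 and 7). The paper describes its F1 mice as female, and the day 3 labels give no sex. Strain, sequencing and day changed together, and by the paper's description the sexes used did too, so values of the days were not compared. Neurons were picked by hand, and axons of some SNT-side neurons may have been spared by the cut, so an SNT-side average can hold uninjured cells. The 3 pooled libraries of a side are parts of 1 lysate, and their p-values therefore measure technical spread between libraries and not spread between animals. The labels tie no cell to an animal. The cells of a side and day are therefore 1 sample, and their differences are given with the SD over cells and without a test.

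The pooled libraries were assigned to sides by column names that match the sample titles. The identifier line of the table pairs the same 6 columns the opposite way, and the source label describes all 6 as intact. Under the other assignment every pooled difference would change sign. By the names, the injury-induced transcription factor Atf3 was 6.86 ± 0.21 (SE) log2 units higher in the SNT pools (adjusted p = 1.1e-26), Jun, another injury-induced factor, was 2.13 ± 0.17 higher (adjusted p = 3.8e-13) and the growth-associated gene Sprr1a was 7.98 ± 0.24 higher (adjusted p = 8.3e-27). In cells, whose sides rest on their own titles, mean Atf3 was also higher on the SNT side, with a log2 ratio of 6.30 at day 3 and 5.76 at day 7. Total counts were 563462 to 2003817 in pools and 261351 to 1849130 in kept cells.

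The files give no coordinates and were made on mm9. In GENCODE M21 on GRCm38, Nefh lies at chr11:4938754-4948064 on the minus strand. Nefm (chr14:68082590-68124846, minus strand) and Nefl (chr14:68083863-68089095, plus strand) are neighbors whose annotated spans overlap on opposite strands. Ina lies at chr19:47014698-47025327 on the plus strand and overlaps Nt5c2 on the other strand, Prph at chr15:99055174-99058978 and Vim at chr2:13573927-13582826, both on the plus strand. The libraries do not mark strand, so reads in the overlaps cannot be told apart. Nt5c2 had a mean of 48.6 ± 8.65 CPM (counts scaled to a library total of 1000000, SD) in SNT pools and 31.6 ± 8.93 CPM in control pools. In day 3 cells it averaged 52.9 ± 21.2 CPM (SNT) and 37.8 ± 20.3 CPM (control), and in day 7 cells 32.7 ± 13.4 and 32.9 ± 11.3 CPM. The part of Nt5c2 reads in the Ina values was not tested.

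Upstream sequence was at hand for 3 of the 6 genes, from RefSeq on GRCm38.p6, and is shown because Ina and Prph ranked together over day 3 cells whereas Vim did not rank with either (Spearman rho 0.62 for Ina with Prph, -0.10 for Ina with Vim and -0.16 for Prph with Vim). Each line is the 250 bases before the RefSeq start, which is also the GENCODE start for Prph but not for Ina or Vim. The Ina window ends before the GENCODE start of the gene, and the Vim window lies within the GENCODE span of the gene. Capitals mark a TATA box (TATAAA) or an SP1 motif (GGGCGG, on either strand).

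Ina promoter, chr19:47014431-47014680, plus strand: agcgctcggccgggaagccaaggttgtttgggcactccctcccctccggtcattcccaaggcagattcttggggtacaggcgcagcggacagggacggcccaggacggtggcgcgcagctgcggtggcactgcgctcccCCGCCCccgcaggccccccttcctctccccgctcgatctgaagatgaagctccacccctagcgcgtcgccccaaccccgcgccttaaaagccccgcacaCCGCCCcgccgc

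Prph promoter, chr15:99054924-99055173, plus strand: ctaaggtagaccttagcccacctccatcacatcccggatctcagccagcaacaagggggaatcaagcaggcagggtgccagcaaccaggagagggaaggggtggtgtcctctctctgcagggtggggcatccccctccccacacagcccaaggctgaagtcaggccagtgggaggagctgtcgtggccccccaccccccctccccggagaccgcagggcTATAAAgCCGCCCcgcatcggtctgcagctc

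Vim promoter, chr2:13574061-13574310, plus strand: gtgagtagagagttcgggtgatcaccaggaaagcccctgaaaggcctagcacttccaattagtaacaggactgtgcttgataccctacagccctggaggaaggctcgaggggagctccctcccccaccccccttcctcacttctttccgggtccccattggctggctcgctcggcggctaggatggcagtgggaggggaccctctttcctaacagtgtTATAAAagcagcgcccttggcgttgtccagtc

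Vim and Prph each hold a TATA box, at bases -32 to -27 and -31 to -26 from the RefSeq start, a motif found in 12.4% of 32851 promoters. Prph has 1 SP1 match (-24 to -19) and Ina has SP1 matches at -111 to -106 and -12 to -7, a motif held by 32.7% of promoters. None of the 3 windows holds the AP-1 letters TGANTCA (6.75% of promoters) or the CRE letters TGACGTCA (1.55% of promoters), searched on both strands.

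In pooled neurons at day 3, the heavy and medium neurofilament subunits were roughly doubled on the SNT side, the light subunit was raised less, and peripherin did not separate the sides. Nefh, the heavy chain whose phosphorylated tail spaces filaments, measured 305, 303 and 334 CPM in the control libraries and 686, 597 and 633 CPM in the SNT libraries. Every SNT library lay above every control library, and the difference was 1.19 ± 0.13 log2 units (SE, edgeR quasi-likelihood test, adjusted p = 2.9e-09). Nefm, the medium chain, measured 812, 954 and 1049 CPM in control and 1557, 1890.3 and 2183 CPM in SNT libraries, again without overlap. Its difference was 1.16 ± 0.13 log2 units (adjusted p = 1.7e-09). Nefl, the core subunit that neurofilament assembly requires, measured 4233, 5116 and 5834 CPM in control and 6823, 8594 and 7343 CPM in SNT libraries. The sides did not overlap, but its difference of 0.74 ± 0.11 log2 units (adjusted p = 1.2e-06) stayed under the limit of 1 set for a change.

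The other 3 genes behaved differently. Ina, a subunit that co-assembles with the neurofilament chains, measured 57.8, 73.9 and 39.04 CPM in control and 26.3, 26.1 and 30.4 CPM in SNT libraries. All SNT libraries were lower, by 0.90 log2 units (change of -0.90 ± 0.28, adjusted p = 0.014), which passed the test but not the limit of size. The adjusted p of Ina was 0.124 without control library 2, 0.059 without SNT library 1 and 0.050 without SNT library 2. Without control library 3 the change was -1.09 and passed both limits. Prph measured 926, 1122 and 1265 CPM in control and 1154, 902 and 1096 CPM in SNT libraries, and the sides overlapped (0.09 ± 0.13, adjusted p = 0.67). Vim measured 508, 553 and 509 CPM in control and 365, 406 and 413 CPM in SNT libraries. The sides did not overlap, and the change of -0.25 ± 0.13 did not pass (adjusted p = 0.17). Scaled by library size alone, Vim changed by -0.41 (adjusted p = 0.017), still within the limit of size, and Prph by -0.07.

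Thus 2 of the 6 genes passed both limits, both upward, where 15.9% of 13509 genes tested passed in either direction and 8.83% upward. Libraries of the sides did not overlap for 5 of the 6 genes, against 38% of all genes. The median change was 0.42 over the 6 genes and 0.02 over all genes tested. P2rx3, the ATP receptor channel of non-peptidergic nociceptors, fell by 1.23 log2 units in the SNT pools, and 4 of 5 non-peptidergic markers, 3 of 5 peptidergic markers and 4 of 4 C-low-threshold mechanoreceptor markers were lower. Of 6 markers of large myelinated neurons, Ntrk3 (1.62) and Cntnap2 (1.01) were higher and the other 4 did not pass. Fewer cells of a type and less RNA per cell cannot be told apart in pools. Summed glial markers lay between 6143 and 6930 CPM in SNT pools and between 12543 and 15177 CPM in control pools, with all 10 markers detected, and the satellite glial gene Apoe fell by 1.30 log2 units. The part of glial RNA in the pooled Vim value was not tested.

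**Figure D1:**
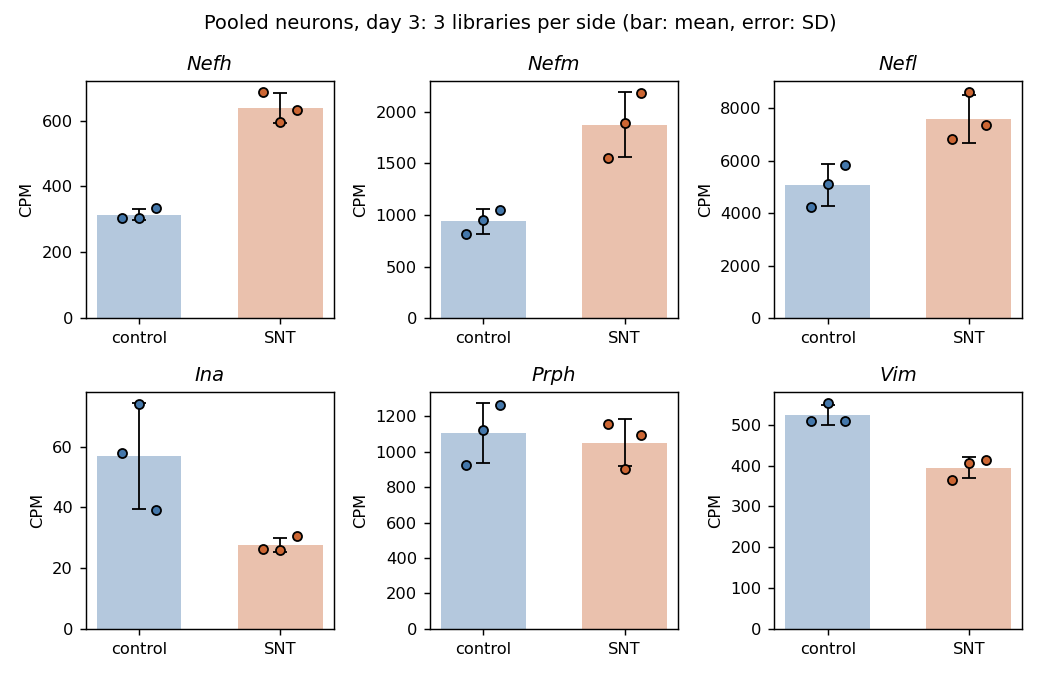
CPM of each gene (y axis, linear from 0) in the 3 control and 3 SNT pooled libraries of day 3, with bars for the mean, error bars for the SD and points for libraries. The Nefh and Nefm points of the SNT side lie at 597 to 686 and 1557 to 2183 CPM, above every control point, while those of Prph overlap.

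Genes that link, move or modify these filaments were followed as a list of 19, of which 3 were higher, none was lower and 16 did not pass both limits, a share near the background of 15.9% in either direction and 8.83% upward. The 3 were Plec, Macf1 and Dst, cytolinkers of the plakin family that join parts of the cytoskeleton to each other. Plec rose from 361 ± 64.2 to 782 ± 38.8 CPM (SD, n = 3; log2 change 1.27, adjusted p = 1.1e-09), Macf1 from 103 ± 31.7 to 218 ± 18.7 CPM (1.22, adjusted p = 1.7e-06) and Dst from 404 ± 22.2 to 731 ± 57.9 CPM (1.01, adjusted p = 5.7e-08). Over single day 3 neurons, Plec averaged 666 CPM (SNT) and 555 CPM (control), and Macf1 174 and 142 CPM. Dst was not higher there, with means of 637 CPM (SNT) and 673 CPM (control). The median change of the 19 genes in pools was 0.47. Among the kinesin heavy chains, none passed both limits: Kif5c changed by 0.83, Kif5a by -0.43 and Kif5b by -0.90. Of 18 other intermediate filament genes, 10 were tested and 2 were higher, against the same background of 8.83% upward. Krt19, a keratin, had 0 counts in the 3 control libraries and averaged 8.34 CPM in SNT libraries, at least 5.92-fold higher when 3 counts over the control group are taken as the floor. Gfap, the filament of glia, was at least 3.352-fold higher on the same floor, with a mean of 4.72 ± 5.01 CPM and 0 in 1 SNT library. The nuclear lamin gene Lmna changed by 0.87 (adjusted p = 3.0e-05) and did not reach the limit of size.

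Levels of different genes were compared as CPM per kilobase of transcript. In control pools Nefl was highest (1497 ± 237, SD, n = 3), then Prph (604 ± 93.3), Nefm (281 ± 35.8), Vim (239 ± 11.6), Nefh (78.6 ± 4.28) and Ina (17.6 ± 5.38). Nefm and Vim differed by about the spread between libraries. In SNT pools the order was Nefl, Prph, Nefm, Vim, Nefh and Ina, and Prph (575 ± 72.3) and Nefm (563 ± 93.8) were within their spread. The share of the summed 6 genes taken by Prph was 22.2% ± 0.43 in control pools and 15.5% ± 2.88 in SNT pools.

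In single neurons at day 3, vimentin was higher on the SNT side, peripherin was lower and the neurofilament chains overlapped widely. None of the 6 genes passed a log2 ratio of mean CPM beyond 1, a size reached by 11.9% of 9736 genes. Vim ranged from 6.31 to 539 CPM in control cells (median 127, mean 200.4 ± 189, SD, n = 18) and from 2.18 to 1281 CPM in SNT cells (median 399, mean 398 ± 242, n = 41). The ranges overlapped, 36 of 41 SNT cells lay above the control median, and the log2 ratio was 0.99 of means and 1.64 of medians. With the 11 outlier cells included the ratio of means was 0.03. Over the SNT cells Vim ranked with Atf3 (Spearman rho 0.44, n = 41) and with the glial marker sum (0.34), and over the control cells with the glial marker sum (0.74, n = 18). Glial sums were similar on the sides, with medians of 3796 CPM (SNT) and 3753 CPM (control), and their part in Vim was not tested. In pooled libraries Vim was lower on the SNT side, as given above.

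Prph ranged from 1041 to 3444 CPM in control cells (median 2814) and from 272 to 3670 CPM in SNT cells (median 1756). Of 41 SNT cells, 13 lay below every control cell, and the log2 ratio was -0.52. Prph fell with total counts over the 59 cells (rho -0.50), and SNT cells were deeper (median total 1323930 against 862619), which was not tested as a cause. Nefl ranged from 644 to 13045 CPM in control (median 3869) and from 909 to 14494 CPM in SNT cells (median 3350), a log2 ratio of -0.13. Nefm gave 0.16. For Nefh the mean was lower on the SNT side (336 ± 434 against 438 ± 550 CPM, log2 ratio -0.38) and the median higher (144 against 91.2 CPM, log2 ratio 0.65). Ina had means of 92.4 ± 107 CPM (SNT) and 77.4 ± 72.1 CPM (control).

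Over the 59 day 3 cells the neurofilament chains ranked with each other, and Nefh ranked against Ina. Nefm and Nefl ranked together (rho 0.90), as did Nefh and Nefm (0.71), whereas Nefh and Ina ranked against each other over all cells (-0.66), over SNT cells (-0.64, n = 41) and over control cells (-0.76, n = 18). Ina ranked with Prph (0.62) and with P2rx3 (0.60), and Nefh ranked against P2rx3 (-0.67). Nefm and Nefl with Prph gave -0.30 and -0.14 over all cells. These were -0.45 and -0.28 over SNT cells and 0.03 and 0.10 over control cells. All points share libraries, depth and side, so these values are descriptions. Ina was above 10 CPM in 27 of 41 SNT cells (65.9%, exact binomial 95% interval 49.4 to 79.9%) and in 12 of 18 control cells (66.7%, 40.99 to 86.7%). The intervals take cells as independent and do not cover spread between animals. In 47 day 7 cells the rho of Nefh with Ina was 0.01 and that of Ina with P2rx3 was -0.02. Within sides, Nefh with Ina gave 0.18 in SNT cells (n = 33) and -0.55 in control cells (n = 14). Ina with P2rx3 gave -0.14 and 0.46 there. Ina was listed at 0 in 23 of 33 SNT and 11 of 14 control cells of day 7.

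**Figure D2:**
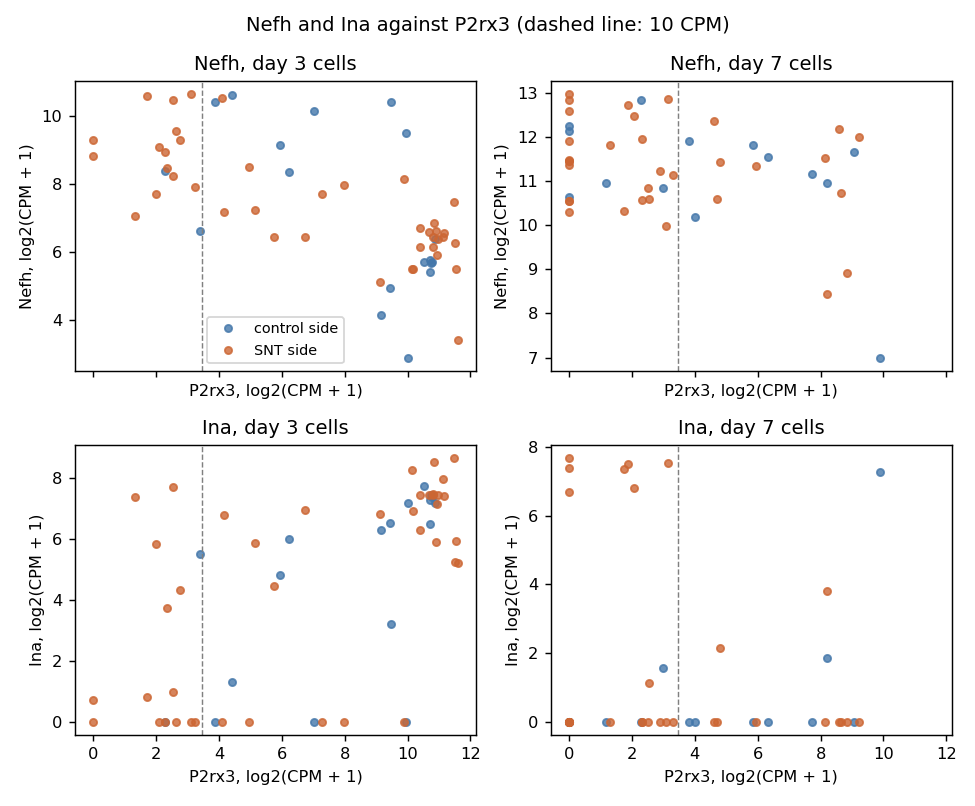
Nefh and Ina (y axes) against P2rx3 (x axes), all as log2(CPM + 1), for 59 day 3 and 47 day 7 neurons, 1 point per cell, colored by side, with a dashed line at 10 CPM of P2rx3. At day 3 Nefh falls and Ina rises with P2rx3 (rho -0.67 and 0.60), and at day 7 most Ina points lie at 0.

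The genes whose pattern was most like each member over the day 3 cells, among 9277 genes averaging 10 CPM or more, were Adam23 (0.87), S100b (0.83) and Lgi3 (0.83) for Nefh. For Nefm they were Nefl (0.90), Pcdh18 (0.77) and Epn3 (0.77), and for Nefl they were Nefm (0.90), Nrg1 (0.77) and Mapk10 (0.77). For Ina they were Ngfrap1 (0.81), Tmem158 (0.79) and Klf7 (0.76), for Prph Ywhah (0.82), Rgmb (0.74) and Cacnb3 (0.74), and for Vim Cd63 (0.79), Ndrg1 (0.77) and Phgdh (0.77). Of these 18 genes, 3 were also among the 3 most alike over day 7 cells, namely Epn3 for Nefm, Nrg1 for Nefl and Cacnb3 for Prph.

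Division by P2rx3 left both classes mixed. Mean Nefh in day 3 SNT cells was 165 CPM with P2rx3 above 10 CPM and 666 CPM at or below it. In control cells the means went the other way, at 465 and 217 CPM, with 2 cells in the lower class. Control medians were 68.8 and 217 CPM. At day 3, 27 SNT and 16 control cells had P2rx3 above 10 CPM. Among them Nefh had a log2 ratio of means of -1.49 and of medians of 0.33, from a control range of 6.48 to 1575 CPM (median 68.8) and an SNT range of 9.61 to 1482 CPM (median 86.8). The ranges overlapped, and 21 of 27 SNT cells lay above the control median. Nefh was the only one of the 6 genes beyond 1 here (background 11.6% of genes), and Vim gave 0.92, Ina 0.54, Prph -0.42, Nefm -0.44 and Nefl -0.49. With P2rx3 above 500 CPM, a threshold chosen after seeing the data, Vim reached 1.93 by means and 3.255 by medians (19 SNT and 11 control cells). Nefh was -1.34 by means and 0.67 by medians there, where 2 of the 11 control cells measured 1361 and 722 CPM and the other 9 measured 6.48 to 83.6 CPM, and leaving out the cell at 1361 CPM gave -0.32. Among cells at or below 10 CPM, Nefm (1.86), Nefh (1.62), Vim (1.56) and Nefl (1.15) were beyond 1 upward, where 29.2% of genes were beyond 1 and 14.3% upward, but only 2 control cells stood against 14 SNT cells. With 1 of these cells left out in turn, Nefh ran from 0.99 to 2.74, Nefl from 0.91 to 1.44, Vim from 0.59 to 5.79 and Nefm from 1.72 to 2.02, so that only Nefm of the 4 stayed beyond 1. Nefm measured 478 and 588 CPM in those 2 cells and 575 to 3995 CPM in the SNT cells (median 1815). With the threshold at 50 CPM the ratios of Nefh, Nefm and Nefl became -0.41, 0.33 and 0.0751. P2rx3 itself was lower in SNT pools, whereas in day 3 cells it averaged 891 ± 1055 CPM in SNT and 803 ± 729 CPM in control cells (log2 ratio 0.15), with medians of 154 and 699 CPM. Among cells above 10 CPM its mean was 1351 CPM in SNT and 903 CPM in control cells, and 9 SNT cells lay above every control cell. The share of cells in each class also differed, with 27 of 41 SNT and 16 of 18 control cells above 10 CPM.

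**Figure D3:**
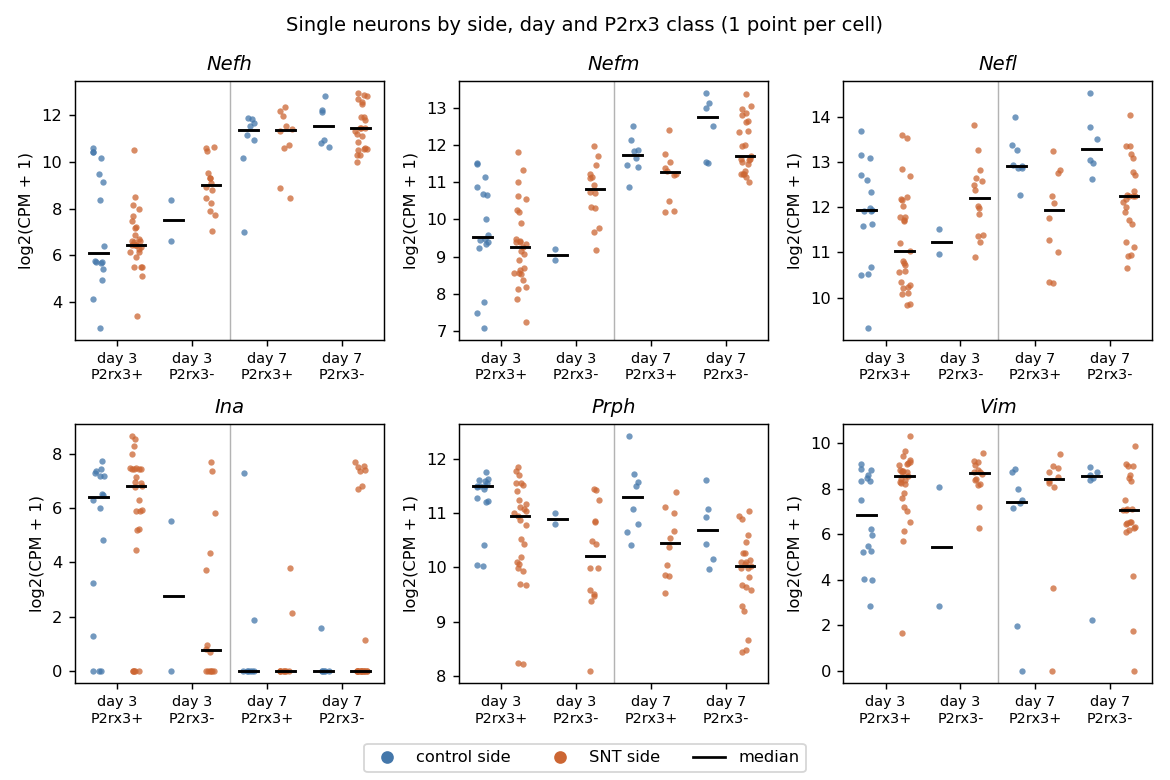
log2(CPM + 1) of each gene (y axes) in single neurons by day, P2rx3 class and side, with 1 point per cell and black lines at medians. Day 7 Nefl and Prph medians are lower on the SNT side in both classes, and the day 3 class without P2rx3 has 2 control cells.

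At day 7 the light neurofilament chain and peripherin were about halved on the SNT side while the heavy chain was not. Nefl ranged from 4931 to 23605 CPM in control cells (median 8239, mean 10288 ± 4892, n = 14) and from 1278 to 16679 CPM in SNT cells (median 4628, mean 5183 ± 3366, n = 33). Of the 33 SNT cells, 22 lay below every control cell and none lay above, with a log2 ratio of -0.99. Prph ranged from 1003 to 5465 CPM in control (median 2045) and from 347 to 2661 CPM in SNT cells (median 1071), a log2 ratio of -0.95, with 12 of 33 SNT cells below every control cell. Nefh had medians of 2640.1 (control) and 2762 CPM (SNT) and a ratio of 0.12, and Nefm had a ratio of -0.28. One of the 6 genes, Ina at 1.52, passed 1 by means, against 7.66% of 9622 genes.

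The lower Nefl and Prph were seen in each sex and each class. Nefl gave -0.95 in females and -1.03 in males, -1.05 in cells with P2rx3 (10 SNT, 8 control) and -1.12 in cells without (23 SNT, 6 control). Prph gave -0.91 and -1.0002 in the sexes and -0.85 and -0.75 in the classes. Split by both, Prph was less even. It gave -0.23 in females with P2rx3 (2 SNT, 4 control cells) and -1.11 in females without (14 and 3). In males it gave -1.21 with P2rx3 (8 and 4) and -0.26 without (9 and 3). Beyond 1 were 2 of 6 genes in each class, Nefl and Ina, where 10.1% of genes were in cells with P2rx3 and 11.8% in cells without. Nefl was lower in both classes, whereas Ina went opposite ways, at -2.96 in cells with P2rx3, where 1 control cell measured 154 CPM, and 5.22 in cells without, where 7 of 23 SNT cells and 0 of 6 control cells were above 10 CPM. Control cells were deeper (median total 738947 against 575179), Prph rose with total counts over the 47 cells (rho 0.45) and Nefl less so (0.22), and summed glial markers had medians of 5186 CPM (control) and 1491 CPM (SNT). Their part in the differences was not tested. Atf3 exceeded every control cell in 12 of the 33 SNT cells. Set against control cells of the same class, it did so in 1 of 10 SNT cells with P2rx3 and in 11 of 23 without. Its median in cells with P2rx3 was 0 CPM (SNT) and 2.16 CPM (control). Most SNT cells of that class thus lacked this injury marker, and whether their lower Nefl and Prph follow from the cut was not tested.

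Ina at day 7 rested on few cells. It was above 10 CPM in 8 of 33 SNT cells (24.2%, interval 11.1 to 42.3%) and in 1 of 14 control cells (7.143%, interval 0.181 to 33.9%). The intervals overlap, and they do not cover spread between animals. The log2 ratio was 5.18 in females and -0.94 in males, and leaving out 1 control cell, at 154 CPM, moved the ratio from 1.52 to 4.70. Vim had close means (256 ± 234 SNT, 261 ± 179 control) and a median of 139 CPM in SNT and 293 CPM in control cells, and it ranked with the glial marker sum (rho 0.67).

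Ratios between subunits within a library do not depend on how libraries are scaled. On counts per kilobase, the log2 ratio of Nefl over Nefm was 2.41 ± 0.05 in control and 2.002 ± 0.24 in SNT pools (SD, n = 3), a difference of -0.40 (two-sided exact permutation p = 0.1, the smallest that 3 against 3 can give, and 0.3 adjusted over 3 ratios). Nefl over Nefh differed by -0.43 (exact permutation p = 0.2, adjusted 0.3) and Nefm over Nefh by -0.03 (exact permutation p = 1, adjusted 1). In day 3 cells Nefl over Nefm was 2.13 ± 0.59 in control and 1.77 ± 0.55 in SNT cells (n = 18 and 41). In day 7 cells it was 1.13 ± 0.59 in control and 0.30 ± 0.59 in SNT cells (n = 14 and 33), a difference of -0.83, with -0.99 in females and -0.68 in males. Nefl over Nefh differed by -1.33 at day 7, with -1.01 in females and -1.63 in males. Nefm over Nefh differed by -0.03 in females and by -0.95 in males, where control cells spread widely (SD 1.37).

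**Figure D4:**
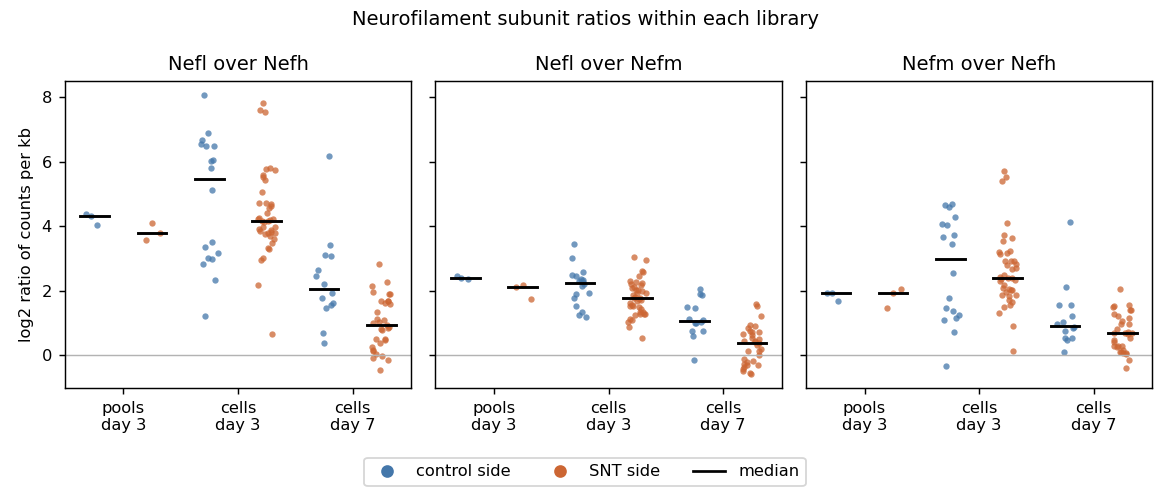
log2 ratio of counts per kilobase between neurofilament subunits (y axis) in each pooled library and neuron, by side, with black lines at medians. Nefl over Nefm is lower on the SNT side by 0.40 in the means of pools and by 0.83 in those of day 7 cells, with overlapping points in cells.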

How the data were processed

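The tables hold Smart-seq2 libraries of 117 neurons and 6 pools. Per the labels the authors used CASAVA 1.8.2, Bowtie2, RSEM and mm9, and their paper names RefSeq exons without ribosomal RNA. The deposited values are named TPM but are expected counts per gene, since library totals run from 223967 to 2003817 and 60.7% to 93.6% of values above 0 are whole. Each library was brought to a sum of 1000000 (CPM).

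Pools were rounded and tested with edgeR 4.0.16 (R 4.3.3, TMM, quasi-likelihood, mean of at least 1 CPM, prior count 0.125, Benjamini-Hochberg over all genes tested). A gene changed where its log2 change exceeded 1 in size at an adjusted p under 0.05. limma 3.58.1 and DESeq2 1.42.0 were alternatives. Cells were compared as log2 of (mean CPM + 1) with the SD over cells, and background shares are over genes whose higher side averaged 10 CPM or more. Other tools were Python 3.11.15, numpy 2.4.6, pandas 2.3.3, scipy 1.17.1 and matplotlib 3.10.9. Scripts were tested on simulated data. Lengths are the mean over GENCODE M21 transcripts with a RefSeq identifier.

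The genes and lists were chosen with earlier results of these data known, and subunit ratios and the 500 CPM threshold were added after the data were seen. Named genes are the 6, P2rx3, Atf3, Jun and Sprr1a, list genes past both limits (up to 4 per direction and list), the 3 genes ranking most like each member, and the most abundant markers of other cell types. Those that bear on the 6 genes are given. Libraries carry no molecular identifiers. Intervals on shares of cells are exact binomial, take cells as independent and do not cover spread between animals. Library numbers of the pools do not pair the sides (correlations of deviations 0.06, -0.02 and -0.01).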

Additional observations from a re-analysis of the deposited data

Results flagged for a closer look

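In groups of 4 to 10 cells, the gap of the extreme cell to its neighbor was compared with Dixon's critical value. This gave 18 sets, the 6 genes in each of 3 groups of day 7 cells, and 4 passed. Chance passes about 1 in 20 sets of continuous values, a rate that does not apply to the 3 Ina sets, where 8 of 10, 6 of 8 and 5 of 6 cells were at 0 and a single higher value passes because the others are tied. Ina stood out in the day 7 cells with P2rx3, at 12.99 CPM in 1 of 10 SNT cells and at 154 CPM in 1 of 8 control cells, and in the day 7 control cells without P2rx3, at 1.96 CPM in 1 of 6 cells with the others at 0. Vim stood out as low, at 3.699 CPM, in 1 of 6 day 7 control cells without P2rx3.

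The 11 day 3 cells that the authors removed as outliers were not part of the comparisons. Their Vim ran from 1830.1 to 4831 CPM, above the highest kept day 3 cell (1281 CPM) in all 11, and their Apoe from 30201 to 82496 CPM, also above every kept cell (10781 CPM). Nefl was below every kept cell in 8 of the 11 and Prph in 9. Their summed glial markers ran from 40240.4 to 99562 CPM.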

How the results depend on the processing

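In pools, Nefh kept its call under every alternative, and Nefm lost it under limma on log2(CPM + 1), where it was 0.99 and the count of changed genes was 1. The count was 2 to 3 with each library left out in turn. Ina passed both limits with library size alone (-1.06) and without control library 3 (its range was -1.09 to -0.66). Prph turned to -0.0695 with library size alone and to -0.0684 under limma, and ranged from -0.0343 (without control library 1) to 0.202 with 1 library left out. With library size alone the median of all genes moved from 0.02 to -0.14. The replicate block, which pairs libraries by number although the numbers do not pair them, left 2 genes changed and 2008 of all genes called, against 2154. DESeq2 called 1771 and the limit of 10 CPM 1649.

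In day 3 cells, 1 gene (Vim) passed 1 by medians, by means of log2 values, by summed counts and by TMM factors. In P2rx3-positive day 3 cells 2 genes passed at the 50 and 500 CPM thresholds (at 500 CPM also by medians), and Nefh turned to 0.33 by medians. At 500 CPM by medians Nefh was 0.67 and Vim 3.255, and leaving out 1 cell gave -1.52 to -0.32 for Nefh and 1.79 to 2.51 for Vim, settings added after seeing the data. In day 3 cells without P2rx3 Ina was -3.79 by medians, and leaving out 1 cell gave ratios of -0.43 to 5.09 (Ina), 0.59 to 5.79 (Vim), 0.99 to 2.74 (Nefh), 0.91 to 1.44 (Nefl) and 1.72 to 2.02 (Nefm). With the 50 CPM threshold 1 gene passed there, and Nefh, Nefm and Nefl were -0.41, 0.33 and 0.0751. No control cell lies at or below 2 CPM at day 3, so that threshold gave no value.

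In day 7 cells 3 genes passed with TMM factors (Nefl -1.06, Prph -1.01 and Ina) and 2 in males, Ina was 5.18 in females, -0.94 in males and 1.28 to 4.70 with 1 cell left out. In day 7 cells with P2rx3, 0 genes passed by medians, 1 by summed counts and at 2 CPM, and 4 at 500 CPM (1 SNT against 2 control cells, with Ina -6.28, Prph -1.78 and Vim -6.18), and Ina was 0 by medians, -0.55 by means of log2 values, 0.93 at 2 CPM and -3.90 to 0.94 with 1 cell left out. Without P2rx3, Ina was 0 by medians, 2.004 by means of log2 values and 2.4996 with a pseudocount of 10 CPM. Of the 18 most alike genes 3 remained over day 7 cells. With merged exon lengths, neighbors in the order per kilobase exchanged ranks: Nefh (to 4) and Vim (to 5) in SNT cells and pools of day 3, Nefl (to 1) and Prph (to 2) in day 3 control cells, Nefh (to 2) and Nefm (to 3) in day 7 SNT cells, and Prph (to 2) and Nefm (to 3) in day 7 control cells. Only the lengths differed there, from 2193 to 4743 bases for Vim, 3334 to 5782 for Nefm and 1827 to 1999 for Prph. Nefh, Nefl and Ina kept the same length. Why other results moved between settings was not tested.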
